A study of Homo sapiens with 6 samples.

Results

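Ribosome assembly and rRNA processing factors are the proteins that transcribe, modify, cut and fold ribosomal RNA on its way to a finished ribosome. The 46 genes described here were chosen by symbol and by their place in this pathway. Their values were not used for the choice, although earlier results of these data were known. All 46 were found among the 26255 genes of the deposited tables. The RNA came from 22RV1, a human CRPC cell line, grown in medium with serum and treated for 24 h with 10 nM bruceantin (BCT) in 3 samples or with the vehicle DMSO in 3 samples. BCT is a plant quassinoid known as an inhibitor of protein synthesis. All samples come from a single cell line at a single dose and time, and nothing in the labels says whether replicates were separate cultures, so the p-values measure the spread between these samples, which may be technical.

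Ribosome synthesis starts in the nucleolus, where RNA polymerase I copies the rDNA repeats with the help of UBF, the SL1 complex and RRN3. Small nucleolar ribonucleoproteins (snoRNPs) then guide the modification of the transcript, with box C/D particles adding methyl groups to riboses and box H/ACA particles making pseudouridine. The precursor is packed into the small subunit processome, is cut, and its parts mature as separate pre-40S and pre-60S particles until they leave the nucleus. The pathway is usually high in growing cancer cells, and many of its genes are known targets of MYC.

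Levels are given in FPKM, fragments scaled by transcript length and by mapped reads, so they can be compared between genes. Log2 fold changes are BCT against DMSO on log2(FPKM + 0.1) and were tested with limma with Benjamini-Hochberg adjustment over 12729 genes, those averaging 1 FPKM or more across the samples, among which were all 46 members. A gene is said to have risen or fallen where its FDR was below 0.05, and to have been called where its absolute log2 fold change was also above 0.85. FPKM hold no counts, so the depth behind a gene is unknown. Depth relative to DMSO replicate 1, as read from 489 genes of very low FPKM, was 0.877 to 1 with DMSO and 1.06 to 1.13 with BCT. These ranges did not overlap, so depth and treatment cannot be told apart. The FPKM of a sample summed to 1169649 to 1572321 with DMSO and to 757534 to 799838 with BCT, and MIR6087 alone held 43.5% to 55.3% and 31.7% to 32.5% of these sums. Forcing equal sums (the equal-sum scaling below) therefore moved the median over all genes from -0.04 to 0.73 on the log2 scale, and leaving out MIR6087 from the sums moved it to 0.35. In bulk RNA, fewer cells with a transcript and less of it per cell cannot be told apart, and an FPKM is a share of the RNA, not an amount per cell. All 9 markers of 22RV1 cells used here, KLK2 and HOXB13 among them, reached 1 FPKM in at least 1 sample. Their summed level was 908 to 916 FPKM with DMSO and 1896 to 2078 FPKM with BCT, a difference made by KRT8 and KRT18 (ratios of the means 2.26 and 3.29), whereas KLK2, KLK3, TMPRSS2, HOXB13 and EPCAM were lower with BCT (0.32, 0.12, 0.33, 0.74 and 0.82). Of the 14 fibroblast, immune and endothelial markers, COL1A1 and CD68 alone reached 1 FPKM. The fibroblast sum was 1.67 to 1.75 FPKM with DMSO and 5.23 to 6.57 with BCT, the immune sum 2.53 to 3.58 and 5.51 to 8.75, and the endothelial sum at most 0.081, with no marker at 0 in all samples. Their part in the results was not tested.

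The members moved in both directions with BCT. Of the 46 members, 3 were called lower (6.52%), namely NPM1, FBL and NHP2, and 5 were called higher (10.9%), namely RRP12, RRN3, NOC4L, NOP2 and UTP20. Over all tested genes the called shares were 17.8% lower and 13.9% higher. The 3 lower calls depended on the scaling. With equal sums 0 members were called lower and 23 higher, and with equal sums without MIR6087 0 and 13. Quantile normalization gave 0 and 5, whereas median-of-ratios scaling kept 3 lower and 5 higher. Under the latter NPM1 was at -0.983, FBL at -0.904 and NHP2 at -0.869. By FDR alone, 16 members fell (34.8%) and 23 rose, beside 42.8% and 39.3% of all tested genes, so that 84.8% passed in either direction, beside 82.1%, and 7 did neither. With equal sums none of the 16 falls remained, since 12 turned positive and the other 4 did not pass the FDR, at -0.25 for NPM1, -0.17 for FBL, -0.14 for NHP2 and -0.06 for BOP1 (limma adjusted p = 0.063, 0.28, 0.4 and 0.75). That scaling moves all genes upward by a common factor per sample, so it could not turn a rise and is no check of the rises. By role, 8 of the 11 nucleolar and snoRNP proteins fell (5 positive and 0 passing as lower with equal sums), and 14 of the 16 small subunit factors rose. All BCT samples lay below all DMSO samples in 16 members and above them in 23, beside 44.3% and 41.0% of all tested genes (85.3% in either direction). As deposited, most members moved little: the absolute log2 fold change was above 0.5 in 39.1% of the members and in 55.6% of all tested genes. With equal sums the median of the members was 0.856. As deposited it was 0.09 beside -0.04 over all genes, a difference of 0.126 that was 0.043 with no filter on low values, 0.164 with quantile normalization and 0.171 without BCT replicate 3. A common factor leaves it as it is.

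**Figure D1:**
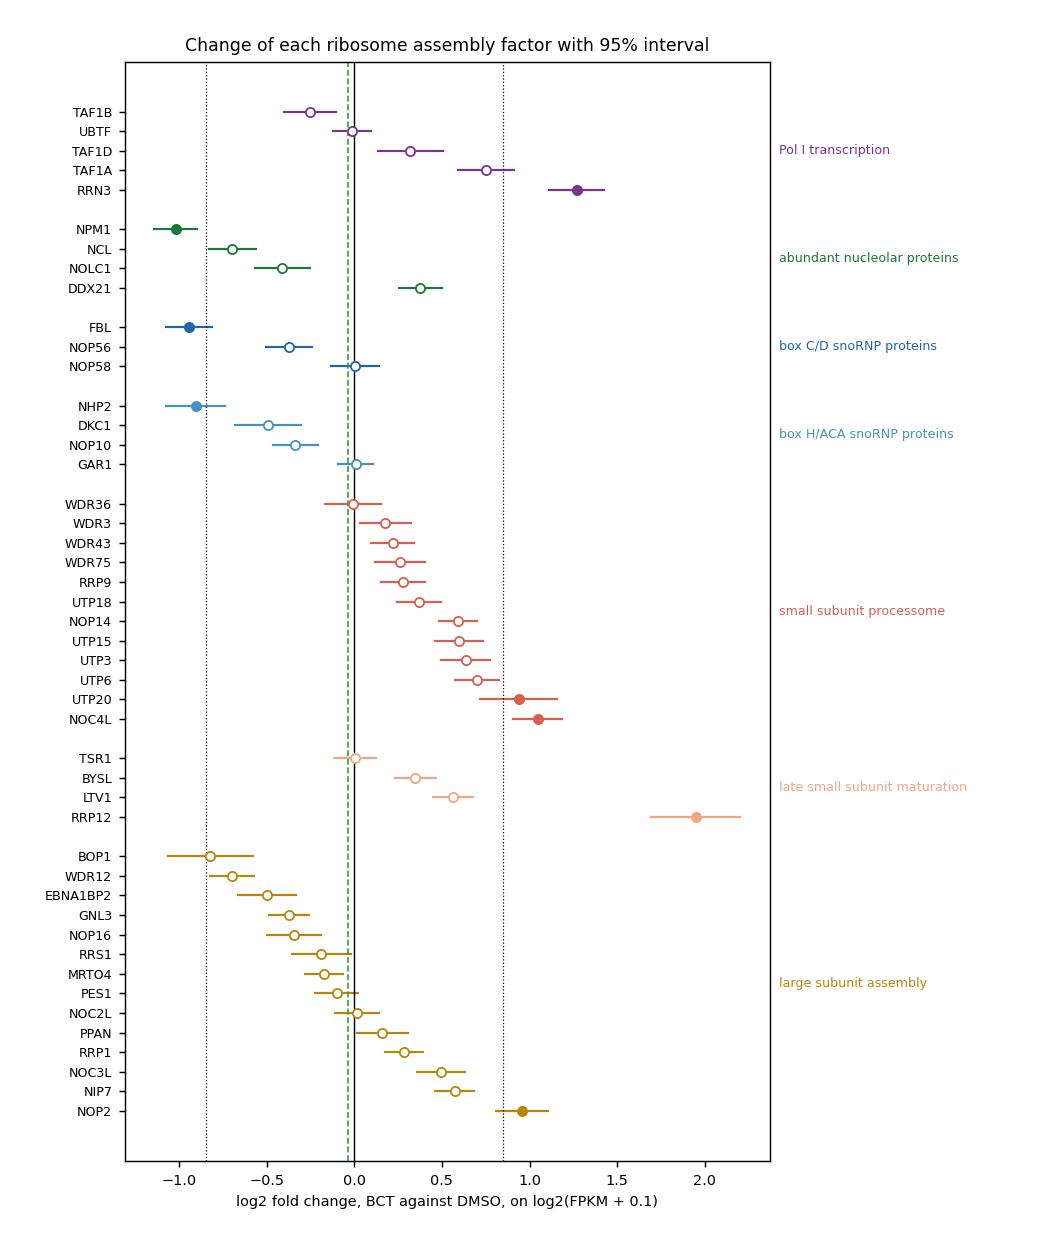
Log2 fold change (BCT against DMSO, on log2(FPKM + 0.1), x axis) of the 46 members with the 95% interval of the limma fit, by role, with filled points for the members called. Dotted lines mark a log2 fold change of 0.85 in either direction and the dashed line the median of all tested genes (-0.04). Of the small subunit members 15 of 16 lie above 0, whereas of the nucleolar and snoRNP members 8 of 11 lie below it (5 of these 8 lie above it with equal FPKM sums).

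Sequence motifs were counted in the promoters of the members, taken from RefSeq (GRCh38.p14, 250 bases before to 50 bases after a start site). Of the 46 members 41 matched an entry, with 50 windows, and NOLC1, NOP58, RRP12, BOP1 and RRS1 had none. The E-box CACGTG, which reads the same on both strands and is the letter sequence bound by MYC and related factors, lay in a window of 17 members (41.5%), beside 12.8% of the tested genes with an entry and 7.26% of all 35116 promoters. The ETS type motif CCGGAAG, searched on both strands, lay in 21 members (51.2%), beside 23.0% and 10.3%. The element CTCGCGA, also searched on both strands, lay in 7 members (17.1%), beside 5.66% and 2.35%. Members with an E-box lay on both sides of 0. Of the 17 members with CACGTG, 11 had positive and 6 negative log2 fold changes, with 2 called higher and 1 lower, and the median was 0.28 with and 0.09 without the motif. The E-boxes of 2 members called higher, of 1 called lower and of 1 whose groups overlapped are shown to let the letters around them be compared, with CACGTG in capitals on the strand of the gene, and the last line shows the CTCGCGA of NPM1, the member with the largest fall.
NOP2, called higher, chr12:6568242-6568271, minus strand: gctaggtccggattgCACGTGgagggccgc
UTP20, called higher, chr12:101280083-101280112, plus strand: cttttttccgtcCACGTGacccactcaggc
FBL, called lower, chr19:39846356-39846385, minus strand: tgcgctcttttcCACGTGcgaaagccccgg
GAR1, not called, chr4:109815781-109815810, plus strand: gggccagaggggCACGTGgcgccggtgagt
NPM1, called lower, chr5:171387791-171387820, plus strand: cttgggaagcgCTCGCGAgatcttcagggt
The first letter of the motif lay at 36, -10, 7, 32 and -47 from the start site. A match is a description of the letters and not of binding.

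Of the factors that start rRNA synthesis, RRN3, TAF1A and TAF1D rose, TAF1B fell (but not with equal sums) and UBTF passed in neither direction. RRN3 (chromosome 16: 15153890-15188168, GRCh37, as all gene positions below), which tethers RNA polymerase I to the promoter, was at 20.7, 21.2 and 19.5 FPKM with DMSO and with BCT at 45.1, 51.2 and 52.3 FPKM. Every BCT sample was more than any DMSO sample, and the log2 fold change was 1.27 (SE 0.068, limma adjusted p = 1.3e-06). Other genes, its pseudogenes among them, share 26.7% of its 50-base stretches, so its reads could be split, and RRN3P1, RRN3P2 and RRN3P3 were listed at no more than 1.53 FPKM in any sample. TAF1A, TAF1B and TAF1D are subunits of SL1, which places the polymerase on the rDNA promoter. None of the 3 overlapped between the groups, and neither did 85.3% of all tested genes. TAF1A was at 8.15, 8.91 and 8.39 FPKM with DMSO and with BCT at 13.3, 15.4 and 14.3 FPKM, a log2 fold change of 0.75 (SE 0.069, limma adjusted p = 1.4e-05). Reads of its antisense gene TAF1A-AS1, at 2.74 to 4.92 FPKM, cannot be told apart from its own, since the libraries do not mark strand. TAF1B was at 8.33, 8.27 and 7.67 FPKM with DMSO and with BCT at 6.76, 6.46 and 7.08 FPKM, a log2 fold change of -0.26 (SE 0.064, limma adjusted p = 0.0058), which became 0.50 with equal sums. TAF1D rose by 0.32 on the log2 scale. UBTF, which encodes the rDNA binding protein UBF, stayed between 54.5 and 57.6 FPKM in all samples, with overlapping groups and a 95% interval of the log2 fold change from -0.12 to 0.09.

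Of the 4 abundant nucleolar proteins, NPM1, NCL and NOLC1 fell and DDX21 rose, and NCL and NOLC1 turned positive (0.07 and 0.36) with equal sums. NPM1 (chromosome 5: 170814120-170838814), the nucleophosmin chaperone of the nucleolus, had the highest level of all members, at 1284, 1221 and 1210.3 FPKM with DMSO, and was at 639, 601 and 591 FPKM with BCT. It had the largest fall of all members as deposited, with all BCT samples below all DMSO samples and a log2 fold change of -1.02 (SE 0.053, limma adjusted p = 1.1e-06). Its call ended with equal sums (-0.252), with equal sums without MIR6087 (-0.634) and with quantile normalization (-0.435). It stayed with median-of-ratios scaling (-0.983). NPM1 shares 20.7% of its 50-base stretches with other genes, its pseudogenes among them. NCL, nucleolin, was at 527, 541 and 492 FPKM with DMSO and with BCT at 339, 309.9 and 313 FPKM. Its groups did not overlap either, and its log2 fold change of -0.70 (SE 0.059, limma adjusted p = 9.3e-06) did not reach the call. NOLC1, a snoRNP chaperone, went from 104.2 ± 5.96 to 78.3 ± 5.79 FPKM (SD, n = 3 each, log2 fold change -0.41). DDX21, an RNA helicase of the nucleolus, was the only one of these 4 to rise, from 78.53, 82.65 and 74.05 FPKM to 100.5, 101.4 and 103.1 FPKM. Its log2 fold change was 0.38 (SE 0.053, limma adjusted p = 0.0002), with no overlap.

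Of the 7 core proteins of the snoRNPs 5 fell as deposited and 0 with equal sums, where FBL and NHP2 were at -0.17 and -0.14 (limma adjusted p = 0.28 and 0.4) and the other 3 above 0. Both calls, of FBL and of NHP2, also ended with quantile normalization (-0.62 and -0.57) and with equal sums without MIR6087 (-0.555 and -0.52). They stayed with median-of-ratios scaling (-0.904 and -0.869). In box C/D particles, FBL (chromosome 19: 40325098-40337019), fibrillarin, the methyltransferase, was at 308, 297 and 306 FPKM with DMSO and with BCT at 166, 162 and 147 FPKM. The groups were far apart, with a log2 fold change of -0.94 (SE 0.057, limma adjusted p = 1.9e-06). NOP56, a scaffold protein of the same particle, went from 119.1 ± 2.40 to 92.1 ± 6.05 FPKM (SD, n = 3 each, log2 fold change -0.37), and was at 0.40 with equal sums. NOP58, its partner scaffold, was at 77.5, 79.6 and 77.9 FPKM with DMSO and with BCT at 73.1, 84.5 and 78.3 FPKM. The NOP58 groups overlapped, and the 95% interval of its log2 fold change ran from -0.14 to 0.14.

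In box H/ACA particles, 3 of the 4 proteins fell, of which DKC1 and NOP10 turned positive (0.27 and 0.43) with equal sums. NHP2 (chromosome 5: 177576464-177580895), which holds the guide RNA, was at 302, 291 and 307 FPKM with DMSO and with BCT at 179, 154 and 149 FPKM. All BCT samples were lower, with a log2 fold change of -0.91 (SE 0.073, limma adjusted p = 7.1e-06). It shares 10.3% of its 50-base stretches with its pseudogenes. DKC1, the pseudouridine synthase, was at 74.6, 73.2 and 71.7 FPKM with DMSO and with BCT at 59.3, 47.4 and 49.6 FPKM. NOP10, a small core protein, fell by 0.34 on the log2 scale. GAR1, the remaining core protein, was at 42.4, 41.4 and 42.6 FPKM with DMSO and with BCT at 42.7, 41.9 and 42.5 FPKM. The GAR1 values overlapped and its log2 fold change was 0.01 (95% interval -0.09 to 0.11).

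**Figure D2:**
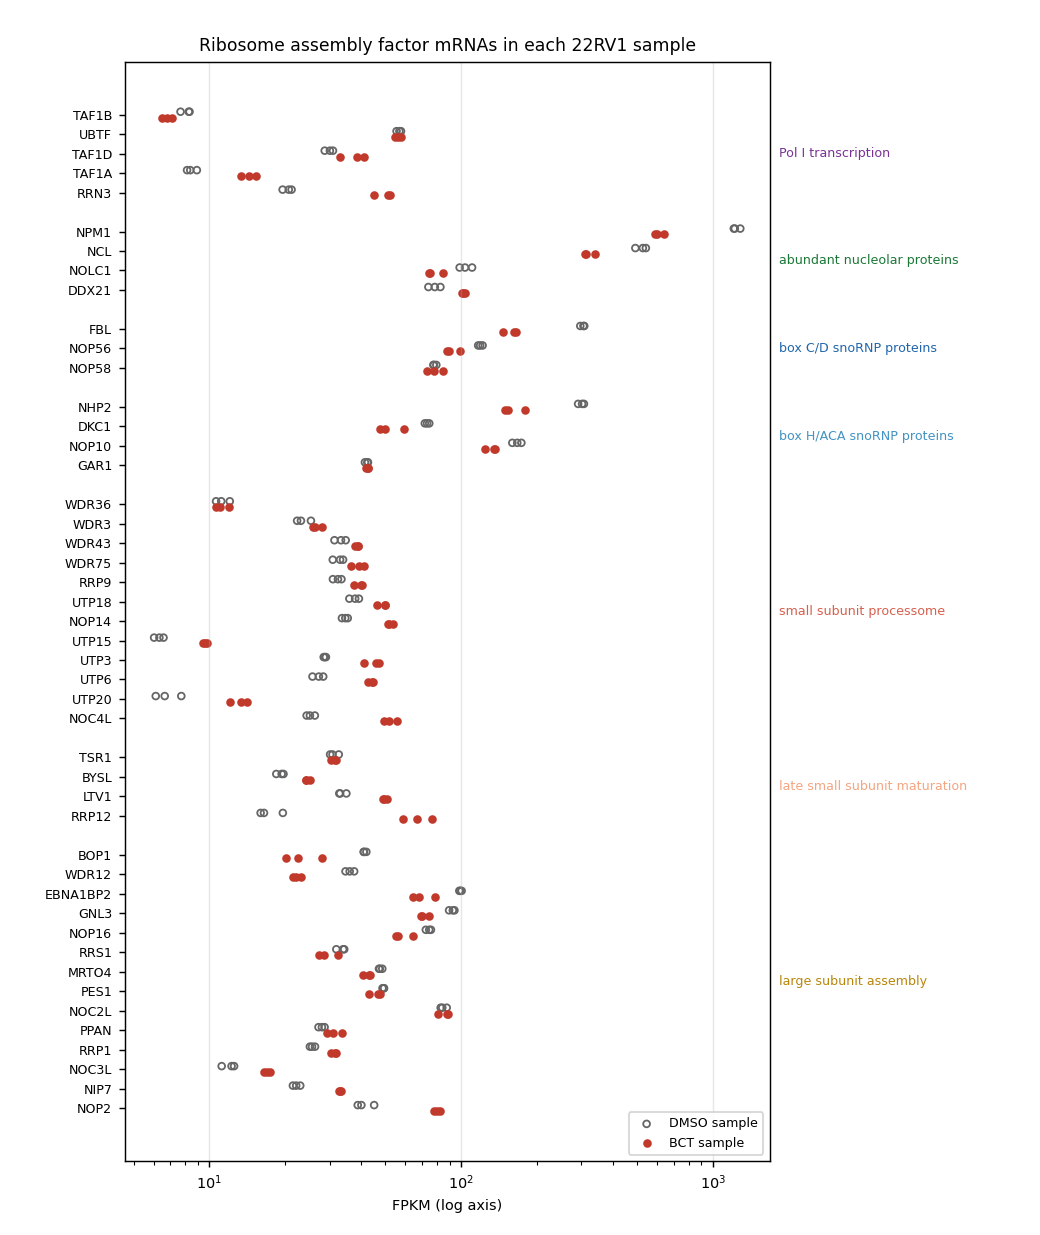
FPKM (log axis) of each member in the 3 DMSO samples (open points) and the 3 BCT samples (filled points), grouped by role. NPM1 stands at the top of the range with 1210.3 to 1284 FPKM with DMSO and 591 to 639 with BCT, RRP12 moves from 15.96 to 19.56 FPKM up to 58.5 to 76.6, and the points of GAR1 lie on each other.

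Of the 12 genes of the small subunit processome, 11 rose, 0 fell and WDR36 passed in neither direction. NOC4L and UTP20 were called. NOC4L (chromosome 12: 132629002-132637018), which acts with NOP14 in the assembly of the 40S subunit, was at 24.3, 25.1 and 26.2 FPKM with DMSO and with BCT at 51.6, 55.8 and 49.3 FPKM. All BCT samples were higher, with a log2 fold change of 1.05 (SE 0.061, limma adjusted p = 1.6e-06). Its partner NOP14 rose by less, from 34.5 ± 0.92 to 52.1 ± 1.46 FPKM (SD, n = 3 each, log2 fold change 0.59), with its antisense gene NOP14-AS1, whose reads cannot be told apart from it, at 1.70 to 2.25 FPKM. UTP20 (chromosome 12: 101673883-101780396), a very large scaffold of helical repeats, was at 6.12, 7.73 and 6.64 FPKM with DMSO and with BCT at 12.08, 13.28 and 14.04 FPKM. The groups stood apart, and the log2 fold change was 0.94 (SE 0.095, limma adjusted p = 2.7e-05). 

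The UtpB subunits UTP6 and UTP18 had log2 fold changes of 0.70 and 0.37, and WDR3 of the same complex one of 0.18. WDR36, a further UtpB subunit, was at 11.13, 12.04 and 10.62 FPKM with DMSO and with BCT at 10.998, 10.64 and 11.96 FPKM. These WDR36 values overlapped, with a 95% interval from -0.17 to 0.15. The other UtpB subunits, PWP2 and TBL3, which are among the further assembly factors and were named after their values had been seen, fell, with log2 fold changes of -0.40 and -0.32 as deposited (limma adjusted p = 0.0016 and 0.0019). Their values with equal sums are not given here. NOP56, which fell by a like amount (-0.37), was at 0.40 with that scaling. The UtpA subunits named here, which bind the start of the precursor, all rose, by unequal amounts. Their log2 fold changes were 0.60 for UTP15, 0.26 for WDR75 and 0.22 for WDR43. The UtpA subunits UTP4, HEATR1 and NOL11, which are no members and were named in the same way, had 0.62, 0.32 and 0.24. UTP3, a processome protein also known as SAS10, rose by 0.63 and RRP9, which binds the U3 snoRNA, by 0.28 on the log2 scale. In all 11 genes that rose, every BCT sample was higher than every DMSO sample, as in 41.0% of all tested genes. The 11 were picked by the FDR on the same values, so this adds no support.

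Of the 4 factors of late small subunit maturation, RRP12, LTV1 and BYSL rose and TSR1 passed in neither direction. RRP12 (chromosome 10: 99116115-99185833), a helical repeat protein of pre-ribosome maturation and export, was at 15.96, 19.56 and 16.46 FPKM with DMSO and with BCT at 58.5, 76.6 and 67.0 FPKM. It had the largest rise of all members, a log2 fold change of 1.95 (SE 0.11, limma adjusted p = 1.4e-06), above 97.66% of all tested genes. The lowest BCT value was far above the highest DMSO value, and none of its 50-base stretches is shared with another gene read in the same direction. LTV1, which leaves the pre-40S particle late, rose by 0.56 on the log2 scale, but 30.3% of its stretches are shared with other genes. BYSL, bystin, rose by 0.35. TSR1, a GTPase-like factor of pre-40S particles, was at 30.1 to 32.6 FPKM with DMSO and with BCT at 30.5 to 31.9 FPKM, with a 95% interval from -0.11 to 0.12.

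Together the 16 small subunit factors stood at a median of 0.47, and 14 of them rose (87.5%) and 0 fell. Beside them, 39.3% of all tested genes rose by the same FDR. Of the further assembly factors described below, 63.4% of those of the small subunit rose and 17.1% fell. Of those of the large subunit, 62.8% rose and 18.6% fell. Among these further factors the larger share of rises was thus not particular to the small subunit.

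The 14 large subunit factors were mixed: 7 fell, 5 rose and PES1 and NOC2L passed in neither direction, with a median of -0.14, and with equal sums none of the 7 fell, 6 being above 0 and BOP1 at -0.06 (limma adjusted p = 0.75). NOP2 (chromosome 12: 6666029-6677857), an rRNA cytosine methyltransferase once known as a proliferation antigen, was the only member of the group to be called. It was at 38.8, 45.1 and 40.1 FPKM with DMSO and with BCT at 78.3, 82.2 and 79.9 FPKM, without overlap. Its log2 fold change was 0.96 (SE 0.064, limma adjusted p = 2.8e-06), and 68.1% of its 50-base stretches also lie in other annotated genes, mostly an overlapping gene model.

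PES1, BOP1 and WDR12 form the PeBoW complex, which is needed to process the rRNA precursors of the large subunit, and their transcripts moved apart. BOP1 (chromosome 8: 145486055-145515082) was at 41.99, 41.08 and 40.97 FPKM with DMSO and with BCT at 27.9, 22.5 and 20.2 FPKM. Its groups did not overlap, and its log2 fold change of -0.82 (SE 0.11, limma adjusted p = 0.00011) lay just short of the call, which it passed without BCT replicate 1 (-0.95). BOP1 shares 71.4% of its stretches with the gene model KM-PA-2, so its FPKM are uncertain. WDR12 was at 37.6, 36.0 and 34.7 FPKM with DMSO and with BCT at 23.2, 21.4 and 22.0 FPKM, a log2 fold change of -0.70 (SE 0.055, limma adjusted p = 6.2e-06). WDR12 was at 0.07 with equal sums. PES1 was at 49.3, 48.7 and 49.3 FPKM with DMSO and with BCT at 47.6, 46.9 and 42.9 FPKM. Although no PES1 value overlapped between the groups, its log2 fold change of -0.10 did not pass the test (limma adjusted p = 0.11).

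EBNA1BP2, which acts in early pre-60S particles, fell by 0.50 on the log2 scale. GNL3, nucleostemin, a nucleolar GTPase, fell by 0.37 and NOP16, a pre-60S protein, by 0.34. RRS1, which helps to bring in the 5S RNA, and MRTO4, which holds the place of the ribosomal stalk, fell by 0.19 and 0.17. RRS1 passed the FDR (limma adjusted p = 0.039) although its groups overlapped, at 31.9 to 34.3 FPKM with DMSO and 27.1 to 32.4 FPKM with BCT. On the other side, NIP7, a factor of 60S maturation, and NOC3L, which works with NOC2L, rose by 0.57 and 0.50. RRP1 rose by 0.28, and PPAN, a factor of early pre-60S particles, by 0.16 (limma adjusted p = 0.042). PPAN shares 48.9% of its stretches, for the most part with the read-through gene PPAN-P2RY11, which the tables list at 4.86 to 5.42 FPKM with DMSO and 7.98 to 9.47 FPKM with BCT. NOC2L, at 82.9 to 87.6 FPKM with DMSO and 80.7 to 88.9 FPKM with BCT, overlapped between the groups, with a 95% interval from -0.11 to 0.14, and 13.1% of its stretches lie in its pseudogenes.

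Within complexes the transcripts thus changed by unequal amounts, and a ratio of 2 members in the same sample does not depend on a common scaling factor. From shared complexes 12 such ratios of FPKM were taken, chosen after the values had been seen, so they are given as a description with no test. The groups did not overlap in 11 of the 12, beside 85.3% of single genes. The FBL to NOP58 ratio was 3.97, 3.73 and 3.93 with DMSO and 2.27, 1.92 and 1.88 with BCT. The NHP2 to GAR1 ratio was 7.13, 7.03 and 7.21 with DMSO and 4.19, 3.67 and 3.50 with BCT. These 2 ratios, of an enzyme to its scaffold and of an RNA binding protein to its partner, had log2 changes of -0.95 and -0.91. BOP1 to PES1 went from 0.842 ± 0.011 to 0.512 ± 0.064 and WDR12 to PES1 from 0.735 ± 0.029 to 0.485 ± 0.028 (SD, n = 3 each). WDR12 to BOP1 overlapped, at 0.847 to 0.894 with DMSO and 0.831 to 1.09 with BCT. Of the ratios that rose, TAF1A to TAF1B went from 1.05 ± 0.062 to 2.13 ± 0.22 and NOC4L to NOP14 from 0.73 ± 0.044 to 1.002 ± 0.036 (SD, n = 3 each).

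The direction of change differed with the level. The 9 members with a mean of 90 FPKM or more with DMSO (NPM1, NCL, FBL, NHP2, NOP10, NOP56, NOLC1, EBNA1BP2 and GNL3) all fell, and 3 were called, although with equal sums 6 were above 0 and NPM1, FBL and NHP2 did not pass the FDR. At that level 803 of all 1099 tested genes fell and 142 rose, with a median of -0.57, close to the median of -0.50 of the 9 members. Of the 6 members at 50 to 90 FPKM, 2 fell, 1 rose and 3 passed in neither direction. Their median was -0.005 beside -0.26 for all tested genes at that level. NOC2L (84.8 FPKM), DDX21 (78.4 FPKM) and NOP58 (78.3 FPKM) lay just under the edge of 90 FPKM and did not fall. The count of falls above that edge thus depends on where it was set. Among the 23 members at 20 to 50 FPKM, 16 rose and 4 fell, with a median of 0.28 beside -0.13 for all tested genes at that level. The 8 members under 20 FPKM had a median of 0.55 beside 0.12, with 6 that rose and 1 that fell. Over the 46 members, the log2 of the mean FPKM over all 6 samples was set against the log2 fold change. Pearson's r was -0.53 (Spearman's rho -0.48), beside -0.08 (-0.07) over all tested genes. These correlations are across genes of the same 6 samples, share the values of both groups on both axes, and are given as a description. The summed FPKM of the 46 members was 4163 to 4296 with DMSO and 3145 to 3318 with BCT, a sum in which NPM1, NCL, FBL and NHP2 weigh most, but as a share of all FPKM it was 0.273% to 0.363% with DMSO and 0.415% to 0.419% with BCT, the opposite order.

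A further 96 ribosome assembly factors, listed by function, had positive log2 fold changes in 64 cases, beside 6134 of all 12729 tested genes. Of the 96, 2 were called lower (2.08%) and 10 higher (10.4%), beside 17.8% and 13.9% of all tested genes. By FDR 56 rose (58.3%) and 21 fell (21.9%), beside 39.3% and 42.8% of all tested genes. In either direction 80.2% passed, close to the 82.1% of all tested genes. The median was 0.30, compared with 0.09 for the 46 members and -0.04 over all tested genes. The kinase RIOK2, which releases factors from pre-40S particles, rose from 10.9 ± 0.32 to 29.7 ± 2.91 FPKM (SD, n = 3 each, log2 fold change 1.43). The helicases DDX27, of the large subunit pathway, and DDX52, of the small, had log2 fold changes of 1.43 and 1.38. TCOF1, treacle, which promotes rDNA transcription with UBF, and the helicase DDX54 were called lower, at -0.94 and -0.86. With equal sums neither TCOF1 nor DDX54 was called, and 3 of the 96 were called lower without BCT replicate 1 and 1 without BCT replicate 3.

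**Figure D3:**
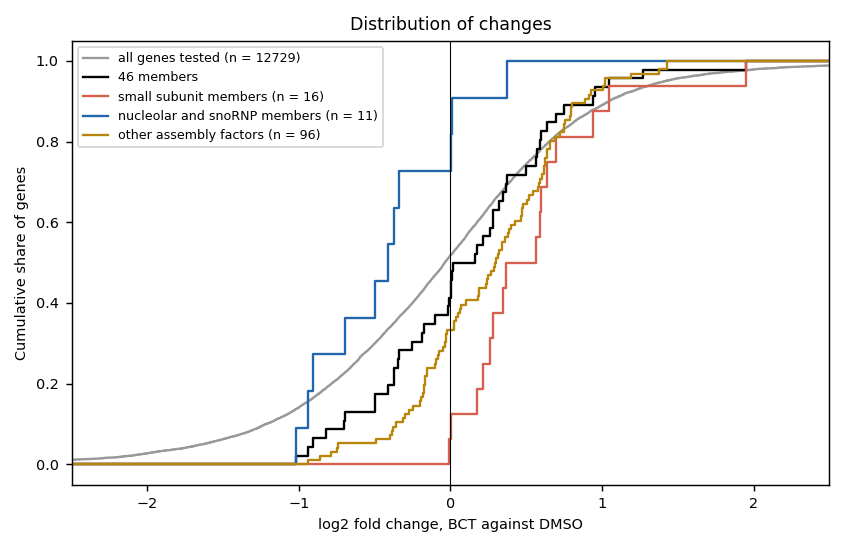
Cumulative share of genes (y axis) by log2 fold change, BCT against DMSO (x axis), for all 12729 tested genes, the 46 members, the 16 small subunit members, the 11 nucleolar and snoRNP members and the 96 other assembly factors. The small subunit curve (median 0.47) lies to the right of that of all genes (median -0.04), and both shift to the right with equal sums.

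Of the BCT samples, replicate 1 was nearest to the DMSO mean in 31 of the 46 members (67.4%), beside 69.1% of all tested genes. The median absolute log2 difference of the members from the DMSO mean was 0.31 in that sample, 0.45 in replicate 2 and 0.42 in replicate 3. Without BCT replicate 1, BOP1 joined the members called lower, which made 4, and leaving out any other sample kept the counts at 3 lower and 5 higher. A test against the fold change threshold itself left 1 member called lower, NPM1, and 3 called higher, RRP12, RRN3 and NOC4L. With quantile normalization 0 members were called lower and 5 higher.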

How the data were processed

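RNA was sequenced from 22RV1 cells treated with DMSO (3 samples) or BCT (3 samples), with poly(A) libraries that do not keep the strand. The deposited values are FPKM per gene, which the authors made by trimming with Trimmomatic (0.38 in the submitters' processing notes), aligning to hg19 with HISAT2 and assembling with StringTie. The processing notes also name CASAVA and HTSeq. The gene annotation is not given in the sources used here.

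The values were used as deposited. Genes averaging 1 FPKM or more across the samples were tested on log2(FPKM + 0.1), which understates changes of low genes, by limma (3.58.1, R 4.3.3, eBayes with trend) and Benjamini-Hochberg adjustment. Called genes were past 0.85 in absolute log2 fold change, with an FDR below 0.05. FPKM hold no read counts, so no count test was run. In a simulation with 200 genes shifted by 1.5 (log2), 195 were called in the right direction, and 1 of 12527 unchanged genes was called (12727 genes, BCT against DMSO). It used normal noise, few changed genes and no difference in scale between the groups. In the data most genes passed the FDR and the calls depended on the scaling. The simulation therefore checks the running of the fit and gives no rate of false calls for these data.

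The members and lists were chosen with earlier results of these data known. A further cell line marker is not reported here. All members are named, and of the 96 other factors and the 14 exosome genes at most the 3 called genes that changed most in each direction, plus small RNAs that reach 1 FPKM and lie in a member's interval, as deposited or in GENCODE. The 12 ratios, the subunit split of the other factors and the small RNAs of TAF1D were chosen after the values were seen. The edges of the level bands were not set in the plan. Gene positions and shared 50-base stretches come from GENCODE v44 lifted to GRCh37, since the tables give 18 members the interval of a shared locus. Stretches were compared in the direction of each transcript only, so overlaps with antisense genes are not counted. Alternatives covered the pseudocount, the filter, 4 scalings, the FDR, a test against the threshold, a replicate block and each sample left out.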

Additional observations from a re-analysis of the deposited data

How the results depend on the processing

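The FDR of 0.01, pseudocounts of 0.01 and 1 and filters of 5 FPKM or none kept 3 members called lower and 5 higher. Scaling mattered more. With equal FPKM sums 6391 genes were called (10.3% of them lower, against 56.2% as deposited), 0 members lower and 23 higher, 0 and 58 of the other factors, and the members' median was 0.856. Leaving MIR6087 out of the sums gave 25.9% of calls lower, 0 members lower and 13 higher, 0 and 38 of the other factors and a median of 0.475. With quantile normalization 0 members were called lower and 1 other factor, and the median was 0.192. Median-of-ratios scaling kept 3 members called lower and 5 higher, with 1 other factor lower and a median of 0.126. A pseudocount of 1 also gave 1 other factor lower. The test against the threshold called 2425 genes, 1 member lower and 3 higher, and 0 and 4 other factors. Without a filter 5428 genes were called, and with 5 FPKM 2727.

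With equal sums these signs turned: UBTF 0.754, TAF1B 0.503, NCL 0.072, NOLC1 0.356, NOP56 0.396, DKC1 0.273, NOP10 0.431, WDR36 0.754, WDR12 0.066, PES1 0.666, RRS1 0.578, EBNA1BP2 0.269, NOP16 0.423, GNL3 0.396 and MRTO4 0.593. Without MIR6087 in the sums the same held for UBTF 0.373, TAF1B 0.127, NOP56 0.015, NOP10 0.05, WDR36 0.375, PES1 0.285, RRS1 0.197, NOP16 0.041, GNL3 0.015 and MRTO4 0.212. Median-of-ratios scaling turned UBTF (0.024) and WDR36 (0.029), and quantile normalization UBTF (0.123). A common factor moves all genes of a sample together, which is the construction of these scalings.

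With each sample left out in turn, 3822 to 4428 genes, 3 to 4 members lower, 5 higher, 1 to 3 and 10 to 11 other factors were called, and the median ran from 0.075 to 0.132. Log2 fold changes near 0 changed sign, from -0.032 to 0.007 for UBTF, -0.05 to 0.054 for NOP58, -0.004 to 0.016 for GAR1, -0.056 to 0.04 for WDR36, -0.021 to 0.036 for TSR1 and -0.008 to 0.061 for NOC2L. The other factors called lower were 3 without BCT replicate 1 and 1 without BCT replicate 3.

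Same-numbered samples correlated by 0.116, 0.0328 and 0.0342 in their deviations, not all over 0.1, and the labels do not say what a number marks, so no pairing was assumed. With the replicate block 4033 genes were called (2266 lower, 1767 higher), with 3 and 5 members, 2 and 10 other factors and a median of 0.089. FPKM carry no depth per gene, and 3 samples per group limit the precision.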

Other observations

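The RNA exosome trims and degrades rRNA precursors and their spacers. Of 14 genes of the exosome and its cofactors, 4 were called higher (28.6%) and 1 lower (7.14%), beside 13.9% and 17.8% of all tested genes, and the median log2 fold change was 0.38. MTREX (listed under its older symbol SKIV2L2), the helicase that feeds RNA to the nuclear exosome, rose from 21.6 ± 1.37 to 43.6 ± 3.86 FPKM, and EXOSC10, its nuclear nuclease, from 36.5 ± 0.39 to 73.4 ± 5.90 FPKM (SD, n = 3 each). The log2 fold changes of MTREX, EXOSC9 and EXOSC10 were 1.009, 1.0025 and 1.0021. EXOSC5, a subunit of the same ring as EXOSC9, was at 47.3, 43.8 and 47.6 FPKM with DMSO and with BCT at 22.9, 21.2 and 19.3 FPKM. Its log2 fold change as deposited was -1.13 (SE 0.071, limma adjusted p = 2.2e-06), with no overlap between the groups. For EXOSC5 the change with equal sums is not given here, a scaling that moved the median over all genes from -0.04 to 0.73.

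The 96 other assembly factors were also divided by subunit, a division made after the values were seen and given with no test. Among the 41 of the small subunit 26 rose (63.4%) and 7 fell (17.1%) by FDR, with a median of 0.32. Among the 43 of the large subunit 27 rose (62.8%) and 8 fell (18.6%), with a median of 0.34. Of all tested genes 39.3% rose and 42.8% fell, with a median of -0.04.

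By symbol and strand in GENCODE, 30 small RNA genes were matched inside 9 of the 46 members. Of these 30, 22 were listed at 0 in all 6 samples and 8 reached 1 FPKM in at least 1 sample. Further small RNA genes given a member's interval, such as SNORD56 and SNORD57 of NOP56 and MIR6782 of UBTF, were not matched and were listed at 0. SNORD20, inside NCL, had listed values of 1348, 2149 and 482 FPKM with DMSO and with BCT at 2185, 0 and 0 FPKM, so its values spanned the whole range within the BCT group. SNORA75, also inside NCL, was listed at 7.67 FPKM in DMSO replicate 2 and at 0 in the other samples. SNORA51, inside NOP56, was at 4.87 and 4.88 FPKM in DMSO replicates 2 and 3 and at 0 in the rest. The other 5, SNORA25, SNORA32, SNORA8, SNORA18 and SNORA40, lie inside TAF1D in GENCODE but outside its interval as deposited. Each was listed at 0 in at least 1 BCT sample, SNORA25 also in 2 DMSO samples and SNORA32 in all 3 DMSO samples and 2 BCT samples. A listed 0 can be a failed estimate, so no fold change is given for them.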
